A study of Mus musculus with 6 samples.

Results

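Cathepsins, subunits of the vacuolar H+-ATPase (V-ATPase) and the lysosome-associated membrane proteins (Lamp genes) were examined in RNA-seq of mouse bone cells. The labels call these cells MSC, read here as mesenchymal stromal cells. Macrophage transcripts such as Lyz2 were also abundant in all libraries, and levels are not assigned to a cell type. The genes were chosen by name from the protein-coding rows of the deposited table: every Cts gene with 1 letter after Cts, every gene whose name starts with Atp6v0 or Atp6v1, and Lamp1 to Lamp3. Ctsk and Atp6v0d2, known for their high expression in osteoclasts, were left out of the set. These names gave 42 of the 54532 genes in the table, namely 17 cathepsins, 22 Atp6v genes and 3 Lamp genes. Atp6v1fnb is included by its name, although the gene is called after its neighbour Atp6v1f and is not a subunit.

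The labels describe 2 genotypes with 3 libraries each. WT mice were Prx1-Cre+, ROSA-YFP and Zeb1wt/wt, and Zeb1Prx1 mice were Prx1-Cre+, ROSA-YFP and Zeb1fl/fl, so controls and mutants both carried the Cre and the reporter, and all were untreated. Prx1-Cre is active in limb mesenchyme and its descendants. Femur and tibia were cut into chips, treated with collagenase and kept in culture, and cells were then sorted by a fluorescent signal that the labels call GFP. The comparison asks which genes depend on Zeb1, a zinc-finger transcription factor, in cells labelled as MSC, a type that can form cartilage and bone. Ages are not given, and the labels do not say whether replicates were separate mice or cultures, and p-values therefore speak only of the scatter among these libraries, part or all of which could be technical.

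Lysosomes are the acidic compartments in which cells digest proteins, lipids and glycans. The V-ATPase pumps protons into them: its cytosolic V1 sector splits ATP, and its membrane V0 sector carries the protons across. Cathepsins are the proteases that work in this acid, and Lamp1 and Lamp2 are heavily glycosylated proteins that line the inside of the lysosomal membrane. Many lysosomal genes share a promoter element, the CLEAR motif, which is bound by Tfeb and its relatives Tfe3 and Mitf. In bone, macrophages and osteoclasts are rich in lysosomes, and osteoclasts secrete acid and cathepsin K onto the bone surface.

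Promoter sequences are shown first, because a shared element is what the genes are best known to have in common. RefSeq promoters (GRCm38.p6, 250 bases before to 50 bases after the start site) matched 33 of the 42 genes. The palindrome TCACGTGA, a core form of the CLEAR motif, occurred in the promoters of 5 of these 33 genes, against 1.12% of 27025 genes with a RefSeq promoter (0.974% of 32851 promoters). The shorter E-box CACGTG, which lies inside that palindrome, occurred in 9 of the 33 genes, against 8.09% of all genes (7.15% of promoters). Both motifs are palindromic, so a match on one strand is a match on both. Each line gives 30 bases of the gene's own strand, 5′ to 3′, with the motif in capitals.
Ctsd: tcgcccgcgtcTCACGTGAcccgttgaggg
Ctsa: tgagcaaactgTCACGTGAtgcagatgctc
Atp6v0d1: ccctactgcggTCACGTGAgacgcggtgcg
Atp6v0e: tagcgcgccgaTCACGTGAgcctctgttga
Atp6v1a: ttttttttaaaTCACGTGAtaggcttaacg
Ctsf: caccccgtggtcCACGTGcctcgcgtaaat
Ctsl: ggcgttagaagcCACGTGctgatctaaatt
Atp6v0b: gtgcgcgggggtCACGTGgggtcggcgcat
Lamp1: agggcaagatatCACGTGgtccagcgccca

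The Ctsd window lies at chr7:142387908-142387937 on the minus strand, with the motif starting 99 bases before the RefSeq start site. The Ctsa window is at chr2:164833749-164833778 (plus strand, 13 bases before the start), and the Atp6v0d1 window is at chr8:105566050-105566079 (minus strand, 4 bases before). In Atp6v0e, at chr17:26676387-26676416 on the plus strand, the motif begins at base 3 of the transcript. The Atp6v1a window, chr16:44139373-44139402 on the minus strand, starts its motif 132 bases before the RefSeq start. It falls in an intron of the GENCODE gene, whereas those of Ctsd, Ctsa and Atp6v0e overlap an annotated exon.

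Among genes with the shorter E-box, the Ctsf window is at chr19:4855074-4855103 (plus strand, 79 bases before the start) and the Lamp1 window at chr8:13159088-13159117 (plus strand, 61 bases before). The Lamp1 promoter holds CACGTG 4 times. The Ctsl window is at chr13:64370739-64370768 (minus strand, 236 bases before the start), and the Atp6v0b window is at chr4:117887348-117887377 (minus strand, 36 bases before the start). Expression of the 5 genes with the full palindrome lay on both sides of 0: the log2 changes given further on were 0.04 for Ctsd, -0.25 for Ctsa, 0.05 for Atp6v0d1, 0.26 for Atp6v0e and -0.31 for Atp6v1a, none of which passed the test.

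Values are FPKM (fragments normalised to gene length and sequencing depth), which compare levels between genes per length. A log2 change is Zeb1Prx1 minus WT on log2(FPKM + 1), fitted by limma with its standard error (SE), and adjusted p-values are Benjamini-Hochberg over the 12534 genes that reached 1 FPKM in at least 3 of the 6 libraries, with a threshold of 0.05. Libraries held 14724357 to 18354894 fragments assigned to genes. Zeb1, the targeted gene, had 6.61, 10.3 and 7.12 FPKM in WT libraries and 1.92, 1.59 and 2.84 in Zeb1Prx1 libraries, each mutant below each control (log2 change -1.53, SE 0.22, limma adjusted p = 0.229). Prrx1, the gene whose regulatory sequence drives the Cre, had 18.1 to 30.5 FPKM, and 17 of 19 stromal markers passed the filter. Beside them, 23 of 25 macrophage markers passed as well, none was at 0 in all 6 libraries (Marco was at 0 in WT replicate 3 and Zeb1Prx1 replicate 3), and the most abundant, Lyz2, had 7034 to 16368 FPKM. Of 12 osteoclast markers 6 passed. No neutrophil marker passed and S100a9, Ngp and Retnlg were at 0 in all libraries. Of the lymphocyte and dendritic cell lists 1 marker each passed, with Klrd1, Prf1 and Flt3 among those at 0.

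Transcripts of the lysosomal proteases and of the proton pump were abundant in both genotypes and differed little between them. Of the 42 genes, 28 passed the filter on low values (10 cathepsins, 16 V-ATPase genes and 2 Lamp genes), 14 did not, and 7 of these 14 were at 0 in every library. By limma 0 of the 28 passed the adjusted threshold, as did 0 of all tested genes (0%), and the smallest adjusted p was 0.285. The log2 changes lay above 0 for 14 genes and below 0 for 14, with a median of -0.00 beside 0.02 over all tested genes. The size of the change was under 0.5 on the log2 scale for 26 of the 28 genes (92.9%, against 80.7% of all tested genes, whose median level of 7.10 FPKM was well under the 51.4 of these genes). For 25 of the 28 the 95% interval lay inside a 2-fold difference in either direction, and the widest bounds over the set were -0.90 and 1.19.

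At an unadjusted p under 0.05 were 3 of the 28 genes (10.7%), against 15.1% of all tested genes: Atp6v0c and Ctsf were higher in Zeb1Prx1 (8.15% of all genes were) and Atp6v0a1 was lower (6.98% of all genes). The libraries of the genotypes did not overlap for 5 of the 28 (17.9%, against 24.4% of all tested genes). Ctsf and Atp6v0c were higher in every Zeb1Prx1 library (12.6% of all genes), and Ctsb, Atp6v1a and Atp6v0a1 were lower in each (11.8% of all genes). In this fit neither share exceeded that of all genes. The first count became 0 when WT replicate 1 was left out (0%, against 10.6% of all genes). It became 0 when Zeb1Prx1 replicate 3 was left out (0%, against 9.67%) and 1 when WT replicate 3 was (3.57%, against 9.25%). The second became 8 (28.6%, against 38.9% of all genes) with WT replicate 1 left out, 9 (32.1%, against 43.2%) with Zeb1Prx1 replicate 1 left out and 11 (39.3%, against 34.4%) with Zeb1Prx1 replicate 2 left out. After every library was brought to the same FPKM sum, which moved the median of all genes to -0.12, the first count was 1 higher and 5 lower, in place of 2 higher and 1 lower, so that 21.4% of the set stood against 15% of all genes. The second was then 11 (39.3%, against 24.2% of all genes).

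**Figure D1:**
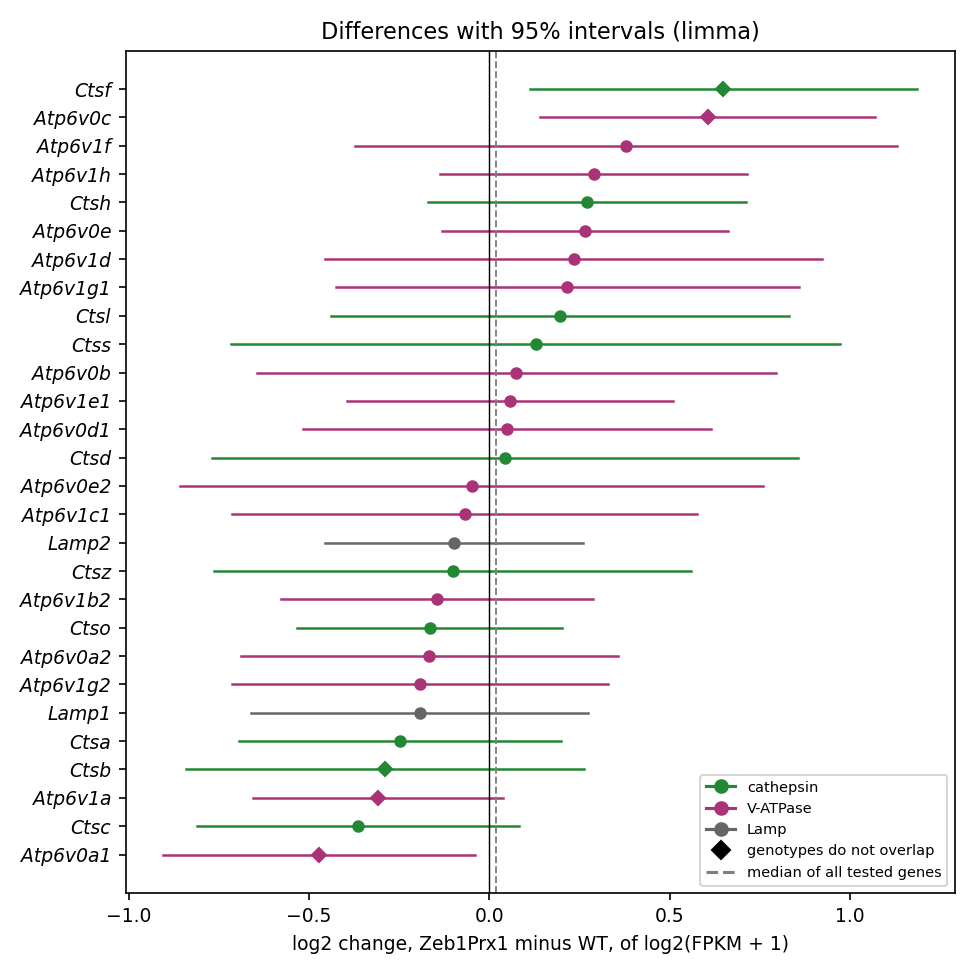
Log2 change (Zeb1Prx1 minus WT, of log2(FPKM + 1), horizontal axis) of the 28 tested genes with 95% intervals from limma, coloured by family; diamonds mark the 5 genes whose genotypes did not overlap and the dashed line is the median of all tested genes, 0.02. The intervals of Ctsf, Atp6v0c and Atp6v0a1 exclude 0 before adjustment, and the points run from -0.47 to 0.65.

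Cathepsin transcripts were dominated by Ctsd, Ctsb and Ctss, which together made up 80.5% to 83.5% of the summed FPKM of the 17 cathepsins in each library. By mean FPKM, Ctsd ranked 11th, Ctsb 22nd and Ctss 26th among all 54532 genes. The summed cathepsin FPKM was 4204 ± 674 in WT and 4200 ± 1276 in Zeb1Prx1 (SD, n = 3), or 1.47% ± 0.210 against 1.28% ± 0.203 of all FPKM. Of the 10 tested cathepsins, 5 lay above 0 and 5 below, with a median log2 change of -0.03.

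Ctsd, the main aspartic protease of lysosomes, had 1521, 1952 and 1332 FPKM in WT libraries and 1237, 2415 and 1450 in Zeb1Prx1 libraries. The highest and the lowest of the 6 values were both mutant, and the log2 change was 0.04 (SE 0.34, 95% interval -0.77 to 0.86). Ctsb, a cysteine protease that acts as both an endopeptidase and a carboxypeptidase (ENSMUSG00000021939, chr14:63122462-63145923), had 946, 1233 and 978 FPKM in WT libraries and 799, 924 and 845 in Zeb1Prx1. Every mutant library lay below every control, by a narrow margin between 924 and 946. The log2 change of Ctsb was -0.29 (SE 0.23, limma adjusted p = 0.534). The end of Ctsb overlaps Fdft1 on the opposite strand by 774 bases, and Fdft1 had a mean of 16.6 FPKM.

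Ctss, a cysteine protease known from antigen-presenting cells, where it cleaves the invariant chain of MHC class II, had 723, 949 and 673 FPKM in WT libraries and 618, 1378 and 707 in Zeb1Prx1. The genotypes overlapped, with Zeb1Prx1 replicate 2 far above the other libraries, and the log2 change was 0.13 (SE 0.36). Ctsz, a carboxypeptidase, had 360, 380 and 349 FPKM in WT libraries and 269, 502 and 286 in Zeb1Prx1 (log2 change -0.10, SE 0.28). Here 2 mutant libraries lay below all controls and Zeb1Prx1 replicate 2 above them. Ctsa, a serine carboxypeptidase that also shields lysosomal neuraminidase and beta-galactosidase, had 201, 223 and 186 FPKM in WT libraries and 158, 201 and 157 in Zeb1Prx1 (log2 change -0.25, SE 0.19, interval -0.69 to 0.20), again with Zeb1Prx1 replicate 2 among the controls. Ctsa overlaps Pltp on the opposite strand by 1515 bases, and Pltp had 89.1 ± 35.7 and 62.7 ± 17.1 FPKM.

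Ctsf showed the largest log2 change of the 28 genes. This cysteine protease (ENSMUSG00000083282, chr19:4855129-4860912) had 14.9, 22.0 and 18.5 FPKM in WT libraries and 22.3, 30.4 and 36.4 in Zeb1Prx1 libraries, from 537 to 1099 fragments per library. The lowest mutant value stood just above the highest control. The log2 change was 0.65 (SE 0.23, 95% interval 0.11 to 1.19) and the fold of mean FPKM was 1.61. Its unadjusted limma p was 0.0246 and its adjusted p was 0.296, so it did not pass. The log2 change stayed between 0.43 and 0.83 over all alternatives.

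The other cathepsins spanned a wide range of levels. Ctsc, the dipeptidyl peptidase that activates granule serine proteases, had 53.4 ± 10.1 FPKM in WT libraries and 41.0 ± 5.05 in Zeb1Prx1 (log2 change -0.36, SE 0.19, limma adjusted p = 0.382), the lowest change among the tested cathepsins. Ctsl, an endopeptidase that also works outside the cell, had 98.3 ± 28.1 and 111 ± 23.8 FPKM. Ctsh, an aminopeptidase, had 23.6 ± 2.46 and 28.9 ± 5.60 FPKM, and Ctso, a little-studied cysteine protease, 7.29 ± 0.690 and 6.42 ± 0.998. Ordered by level, the 10 tested cathepsins ran Ctsd, Ctsb, Ctss, Ctsz, Ctsa, Ctsl, Ctsc, Ctsh, Ctsf and Ctso in 4 of the 6 libraries. Zeb1Prx1 replicate 2 placed Ctss above Ctsb, and Zeb1Prx1 replicate 3 placed Ctsf above Ctsh.

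**Figure D2:**
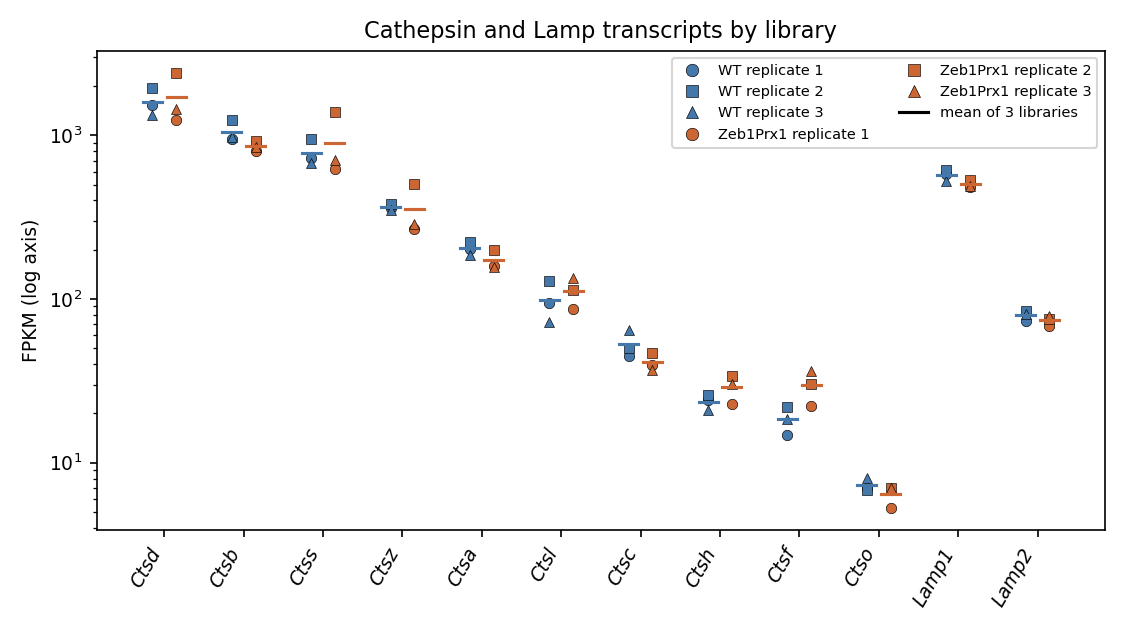
FPKM on a log axis of the 10 tested cathepsins, ordered by level, and of Lamp1 and Lamp2, with 1 point per library and bars at the mean of the 3 libraries of a genotype. Ctsf points of Zeb1Prx1 lie above those of WT and Ctsb points below, while Ctsd, Ctss and Ctsz of Zeb1Prx1 replicate 2 (squares) stand above all other libraries.

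The remaining 7 cathepsins were under the filter. Ctse, an aspartic protease known from stomach and immune cells, had 122 fragments in all in WT and 90 in Zeb1Prx1, a depth-corrected ratio of 0.704 (95% interval 0.530 to 0.931 from counting error only, 0.572 to 0.921 without 1 library or another), with 0.465 to 1.21 FPKM in WT libraries and 0.248 to 0.746 in Zeb1Prx1, so the genotypes overlapped. Ctsw, known from cytotoxic lymphocytes, had 20 and 29 fragments, and Ctsg, a granule protease of neutrophils, had 1 and 2. Ctsj, Ctsm, Ctsq and Ctsr, which belong to a rodent cluster expressed in placenta, were at 0 in all libraries. A count of 0 allows up to 3 fragments per library, or 0.164 to 0.196 FPKM for a gene of 1 kb.

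V-ATPase transcripts summed to 733 ± 64.3 FPKM in WT libraries and 799 ± 212 in Zeb1Prx1, where the SD rests on 1044 FPKM in Zeb1Prx1 replicate 2 against 675 and 678 in the others. Of the 16 tested genes, 9 lay above 0 and 7 below, with a median log2 change of 0.05 and a range of -0.47 to 0.61. The most abundant per length were Atp6v1g1, Atp6v0b, Atp6v0d1, Atp6v1f and Atp6v1a, which belong to both sectors.

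In the V0 sector, Atp6v0c lay above the controls and Atp6v0a1 below them. Atp6v0c encodes the proteolipid that forms most of the rotating proton-carrying ring (ENSMUSG00000024121, chr17:24163866-24169702). It had 13.2, 19.3 and 16.0 FPKM in WT libraries and 20.3, 27.8 and 27.03 in Zeb1Prx1, every mutant library above every control. The log2 change was 0.61 (SE 0.20, interval 0.14 to 1.07, fold of means 1.55), with an unadjusted limma p of 0.0179 and an adjusted p of 0.285. Its processed pseudogene Atp6v0c-ps2, a close copy with which reads could be shared, had 5.12 ± 1.98 and 5.55 ± 0.784 FPKM and overlapped between genotypes. Atp6v0c also lies, over its whole span of 5837 bases, within the protein-coding gene Gm43796 on the same strand. Gm43796 had a mean of 0 FPKM. The effect of this overlap on the Atp6v0c value was not tested.

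Atp6v0a1 encodes an isoform of the large subunit a, which holds the proton half-channels (ENSMUSG00000019302, chr11:101009452-101063719). It had 34.9, 35.3 and 36.8 FPKM in WT libraries and 32.6, 22.2 and 22.7 in Zeb1Prx1. The controls were close together, and Zeb1Prx1 replicate 1 lay only slightly below them. The log2 change was -0.47 (SE 0.18, interval -0.90 to -0.04), with an unadjusted limma p of 0.036 and an adjusted p of 0.309. Without Zeb1Prx1 replicate 2 it was -0.38 with an unadjusted p of 0.0765.

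The other tested V0 genes overlapped between genotypes. Atp6v0b, the larger proteolipid of the ring, had 111, 110 and 94.97 FPKM in WT libraries and 90.3, 179 and 84.0 in Zeb1Prx1. Atp6v0d1, the widely expressed isoform of the subunit that couples the ring to the central stalk, had 122, 96.5 and 96.8 FPKM in WT libraries and 97.0, 147 and 88.2 in Zeb1Prx1. For both, Zeb1Prx1 replicate 2 was the highest library and Zeb1Prx1 replicate 3 the lowest, and the log2 changes of 0.08 (SE 0.30) and 0.05 (SE 0.24) turned to -0.27 and -0.17 without Zeb1Prx1 replicate 2. The small membrane subunit Atp6v0e (47.1 ± 4.25 and 57.0 ± 7.54 FPKM) had a log2 change of 0.26 (SE 0.17), and its isoform Atp6v0e2 had -0.05. Atp6v0a2, the subunit a isoform known from the Golgi, had 12.6 ± 1.36 and 11.3 ± 3.13 FPKM.

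Among the tested V1 genes, Atp6v1a had genotypes that did not overlap. It encodes the catalytic subunit that binds and splits ATP (ENSMUSG00000052459, chr16:44085402-44139705). It had 87.6, 85.3 and 76.7 FPKM in WT libraries and 68.7, 64.2 and 67.7 in Zeb1Prx1, with a gap of several FPKM between the genotypes. The log2 change was -0.31 (SE 0.15, interval -0.66 to 0.04, fold of means 0.804), and its limma adjusted p was 0.357. Without Zeb1Prx1 replicate 2 it was -0.28.

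Atp6v1g1, a subunit of the peripheral stalks, had 127, 109 and 96.9 FPKM in WT libraries and 104, 189 and 107 in Zeb1Prx1 (log2 change 0.22, SE 0.27). Atp6v1f, a small subunit of the central stalk, had 76.8, 83.6 and 63.8 FPKM in WT libraries and 67.6, 157 and 85.4 in Zeb1Prx1 (log2 change 0.38, SE 0.32). In both genes the mutant mean was raised by Zeb1Prx1 replicate 2: without it their log2 changes were -0.06 and 0.03. Atp6v1b2, the non-catalytic nucleotide-binding subunit that alternates with the catalytic one, had 53.1 ± 3.64 and 48.5 ± 9.45 FPKM (log2 change -0.14). The remaining V1 genes Atp6v1h, Atp6v1d, Atp6v1e1, Atp6v1c1 and Atp6v1g2 had log2 changes of 0.29, 0.23, 0.06, -0.07 and -0.19.

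**Figure D3:**
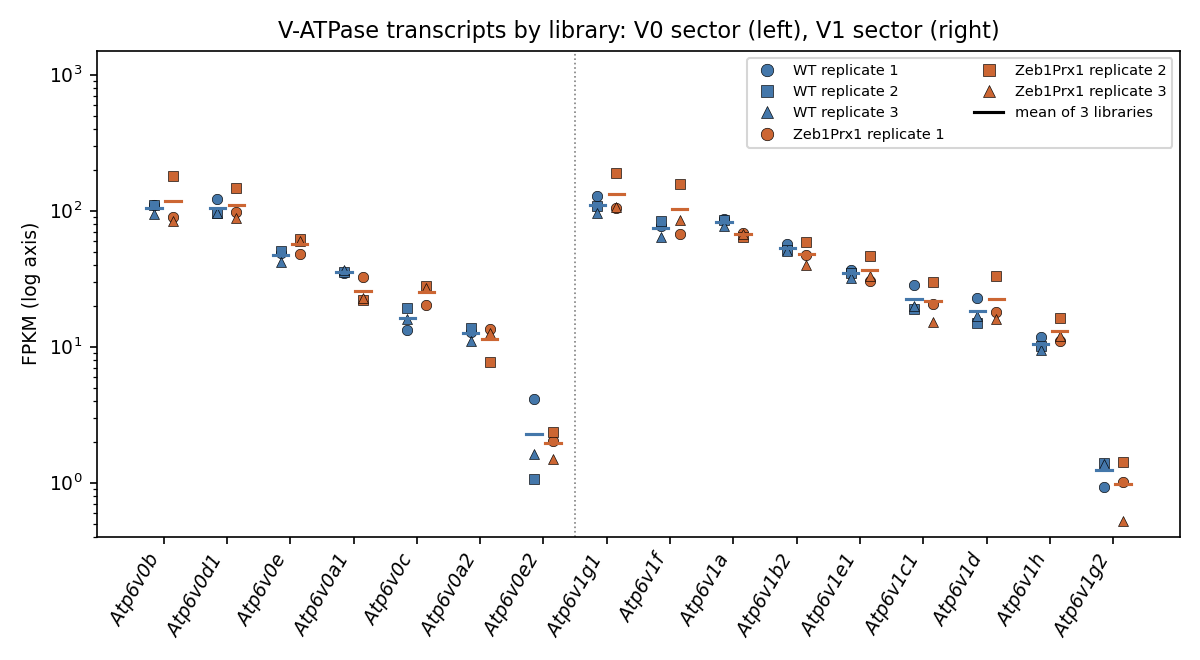
FPKM on a log axis of the 16 tested V-ATPase genes, with the V0 sector left and the V1 sector right of the dotted line, 1 point per library and bars at the genotype means. Atp6v0c of Zeb1Prx1 lies above WT, Atp6v0a1 and Atp6v1a lie below, and the square of Zeb1Prx1 replicate 2 is the highest point for 12 of the 16 genes.

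Where a subunit has several isoform genes, 1 widely expressed isoform held most of the transcripts, except for subunit a. As shares of the subunit's FPKM, Atp6v0d1 held 94.7% ± 0.370 in WT and 96.5% ± 1.13 in Zeb1Prx1, the rest being Atp6v0d2, the osteoclast isoform. Atp6v1g1 held 98.9% ± 0.355 and 99.3% ± 0.239 of subunit G, and Atp6v0e 95.5% ± 2.99 and 96.7% ± 0.829 of subunit e. Atp6v1b2 held 99.98% and 100% of subunit B, since Atp6v1b1, the isoform of kidney and inner ear, had 2 fragments in all WT libraries and 0 in Zeb1Prx1. Subunit a was divided: Tcirg1, the isoform of osteoclasts and macrophages whose name puts it outside the set, held 60.6% ± 1.05 and 61.0% ± 10.2. Atp6v0a1 held 29.1% ± 1.14 and 25.8% ± 5.58 of it, and Atp6v0a2 10.2% ± 1.07 and 11.5% ± 3.96.

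The largest ratios of the set belonged to a pair of isoform genes that did not reach the filter and were picked out after looking at their values. Atp6v1c2, an isoform of the subunit C known from kidney and lung (ENSMUSG00000020566, chr12:17284721-17329359), had 6 fragments in all WT libraries and 90 in Zeb1Prx1. It had 0, 0.0897 and 0.0899 FPKM in WT libraries and 1.49, 0.179 and 0.934 in Zeb1Prx1, all mutants above all controls. The depth-corrected ratio was 14.3 (95% interval 6.32 to 40.01 from counting error only), or 8.88 when Zeb1Prx1 replicate 1 was left out, 9.05 when WT replicate 1 was, and 20.8 when Zeb1Prx1 replicate 2 was. Its share of subunit C was 6.73%, 0.598% and 5.82% in the mutant libraries and at most 0.473% in WT. Atp6v1c2 overlaps the end of Pdia6 on the opposite strand by 50 bases, and Pdia6, a far more abundant gene, had 69.4 ± 5.90 FPKM in WT libraries and 113 ± 25.9 in Zeb1Prx1. Whether the counting used strand is not given in the sources used here, and the part of Pdia6 reads in the Atp6v1c2 value was not tested.

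Atp6v0a4, the subunit a isoform of kidney and inner ear (ENSMUSG00000038600, chr6:38048483-38124586), had 16 fragments in WT and 334 in Zeb1Prx1, of which 305 came from Zeb1Prx1 replicate 3. It had 0.0549, 0.0523 and 0.0917 FPKM in WT libraries and 0.338, 0.0223 and 4.02 in Zeb1Prx1, so the genotypes overlapped. The ratio was 19.9 (12.1 to 35.2 from counting error only) but 2.52 without Zeb1Prx1 replicate 3, against 31.2 without Zeb1Prx1 replicate 2. The start of Atp6v0a4 overlaps D630045J12Rik on the same strand over 1413 bases, and that gene had 1.18, 0.223 and 4.196 FPKM in the mutant libraries, in the same order as Atp6v0a4, and 0.353 to 0.822 in WT. Tmem213, which lies within Atp6v0a4 on the opposite strand, was at 0 in WT and had 0.493, 0.0879 and 1.25 FPKM in the mutant libraries. The part of shared reads was not tested. Atp6v1e2, Atp6v1fnb and Atp6v1g3 were at 0 in every library.

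Neither tested Lamp gene passed, although their share of all FPKM was lower in every mutant library: 0.230%, 0.241% and 0.218% in the controls and 0.195%, 0.164% and 0.182% in the mutants, where the FPKM sum of Zeb1Prx1 replicate 2 was the largest. Lamp1, the most abundant of them and 46th among all genes, had 583, 614 and 528 FPKM in WT libraries and 482, 536 and 488 in Zeb1Prx1. The highest mutant library lay just above the lowest control. The log2 change was -0.19 (SE 0.20, interval -0.66 to 0.27). Lamp2, which also serves chaperone-mediated autophagy, had 73.7, 84.4 and 80.7 FPKM in WT libraries and 68.7, 75.5 and 78.6 in Zeb1Prx1 (log2 change -0.10, SE 0.15, interval -0.46 to 0.26). The genotypes overlapped here too. Lamp3, a Lamp protein of mature dendritic cells, had 5 fragments in WT and 8 in Zeb1Prx1.

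Zeb1Prx1 replicate 2 stood apart from the other libraries by gene length, and most of the 28 genes were high in it. Against the mean of the other 5 libraries, its median over the tested genes of up to 2265 bases (3134 genes) was 0.48 on the log2 scale, and over those of 6342 bases and more (3132 genes) it was -0.37, while these medians lay between -0.19 and 0.15 in the other 5 libraries. It was the highest of the 6 libraries for 16 of the 28 genes (57.1%, against 32.2% of all tested genes) and the lowest for 3 (10.7%, against 27.8%). All 9 genes under 2500 bases had a value in it above the mean of the other 5 libraries, with a median difference of 0.71, as did 13 of the 19 longer genes, with a median of 0.18. Atp6v1f (1063 bases), Ctss (1358 bases) and Atp6v1g1 (1135 bases) stood 1.06, 0.92 and 0.80 above, and Atp6v0a1 (6556 bases) and Atp6v0a2 (6726 bases) stood at -0.51 and -0.65. Ribosomal protein genes, read as a check of length and RNA quality, lay above 0 for 15 of 15 (median log2 change 0.69), and 13 were higher in every mutant library. Without Zeb1Prx1 replicate 2 their folds of mean FPKM were 1.05 to 1.41, so the rise of ribosomal protein genes was not limited to that library. Whether this rise is related to the length shift, and its part in the results, was not tested. The difference of Zeb1Prx1 replicate 2 from the other 5 libraries was also set against length. Across the 28 genes, Spearman's rho with length was -0.72, beside -0.51 over all tested genes. Pearson's r with the logarithm of length was -0.65 across the 28 genes. These are descriptions of genes that share these 6 libraries.

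Without Zeb1Prx1 replicate 2, log2 changes lay below 0 for 20 of the 28 genes, with a median of -0.20 beside -0.00 over all genes. The genotypes then did not overlap for 11 (39.3%, against 34.4% of all tested genes). Ctsf and Atp6v0c were again higher (2 of 28, against 17.2% of all genes). Lower were 9 of 28 (against 17.2% of all genes): Ctsa, Ctsb, Ctsc, Ctsz, Atp6v0a1, Atp6v0b, Atp6v1a, Atp6v1b2 and Lamp1. The share of the set was thus above that of all genes in the lower direction and below it in the higher direction. Unadjusted p under 0.05 was reached by 4 genes (14.3%, against 14.1% of all), namely Ctsz, Ctsa and Ctsc lower and Atp6v0c higher, and the smallest limma adjusted p was 0.326. The part of the length shift in the results was not tested beyond these values. With a length trend removed from every library, an alternative chosen after seeing the data, 0 genes passed the adjusted threshold. In that fit 2 of the 28 had an unadjusted limma p under 0.05 (7.14%, against 13.9% of all genes).

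**Figure D4:**
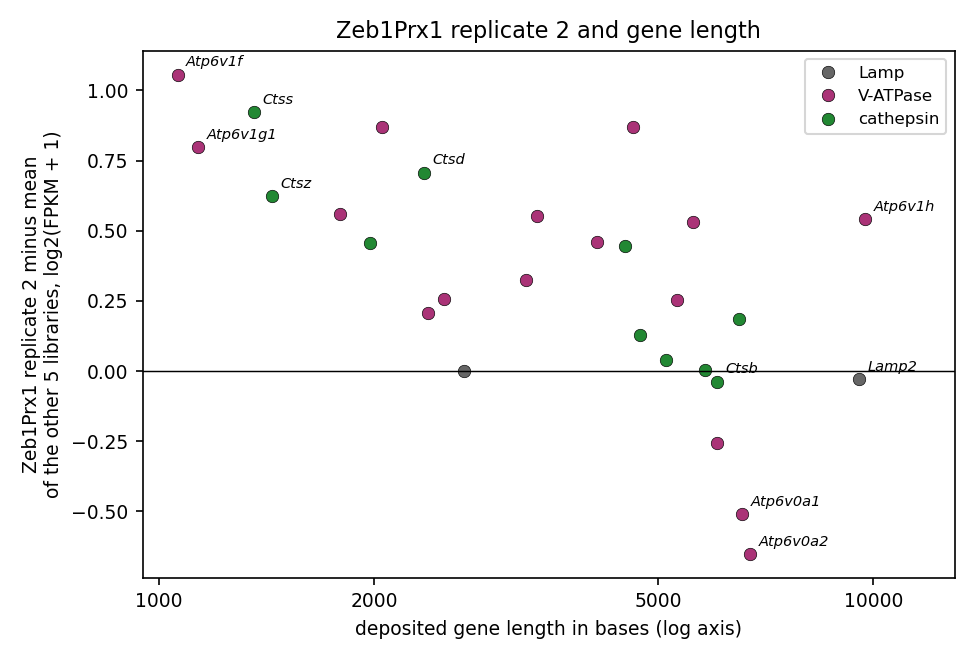
Difference of Zeb1Prx1 replicate 2 from the mean of the other 5 libraries on log2(FPKM + 1) (vertical axis) against the deposited gene length in bases (log axis) for the 28 tested genes, coloured by family. The points of all 9 genes under 2500 bases lie above 0, and Atp6v0a1 and Atp6v0a2 lie lowest at -0.51 and -0.65.

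Other genes of the pathway were read from lists chosen by function, and again 0 passed the adjusted threshold in any list. Of 37 other acid hydrolases, 27 lay below 0 (median log2 change -0.13), 5 were lower at an unadjusted p under 0.05 (13.5%, against 6.98% of all tested genes) and 0 were higher (8.15% of all tested genes). The lipase Lipa had 223 ± 13.4 FPKM in WT libraries and 143 ± 24.6 in Zeb1Prx1 (log2 change -0.65), and the peptidase Tpp1 had 65.4 ± 5.46 and 44.0 ± 9.51 (-0.58). Of 24 tested cofactors and other lysosomal membrane proteins, 19 lay below 0 (median -0.15), with 3 lower (12.5%, against 6.98% of all tested genes) and 0 higher at an unadjusted p under 0.05: the metal transporter Slc11a1 (-0.72), the cholesterol transporter Npc1 (-0.65) and Laptm5 (-0.60), a protein of blood cell lysosomes.

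V-ATPase partners and assembly factors gave 9 of 12 tested genes below 0 (median -0.19), with 2 lower at an unadjusted p under 0.05 (16.7%, against 6.98% of all tested genes). Tcirg1 had 70.0, 78.0 and 75.4 FPKM in WT libraries and 57.6, 80.1 and 47.9 in Zeb1Prx1 (log2 change -0.29, SE 0.21), and the accessory subunits Atp6ap1 and Atp6ap2 had -0.15 and -0.11. Wdr7 and Dmxl1, which belong to the complex that reassembles the pump, had -0.48 and -0.55, and the assembly factor Tmem199 had 0.37. Genes of mannose 6-phosphate sorting, a main route of cathepsins to lysosomes, were read together with Sort1, a sorting receptor outside that route. Of these 9 genes, 8 lay below 0 (median -0.24). At an unadjusted limma p under 0.05, 3 were lower (33.3%, against 6.98% of all tested genes): Gga3 (-0.51), Gnptab (-0.57) and Sort1 (-0.37).

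Among regulators, 9 of 16 genes lay above 0 (median 0.09), with 1 higher and 1 lower at an unadjusted p under 0.05 (6.25% each, against 8.15% and 6.98% of all tested genes). Tfeb had 4.35 ± 0.0701 FPKM in WT libraries and 4.98 ± 1.38 in Zeb1Prx1, and its relatives Mitf and Tfe3 had log2 changes of -0.61 and -0.31. Rragb, a GTPase that docks mTORC1 on lysosomes, had 0.902 ± 0.282 and 2.14 ± 0.485 FPKM (0.72). Of 8 tested cathepsin inhibitors, 3 lay below 0 (median 0.16). Pebp1, listed for its homology to yeast carboxypeptidase inhibitors, had 76.6 ± 4.205 and 117 ± 25.8 FPKM (0.58), and Serpina3g and Serpinb6b had -1.08 and -0.46.

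**Figure D5:**
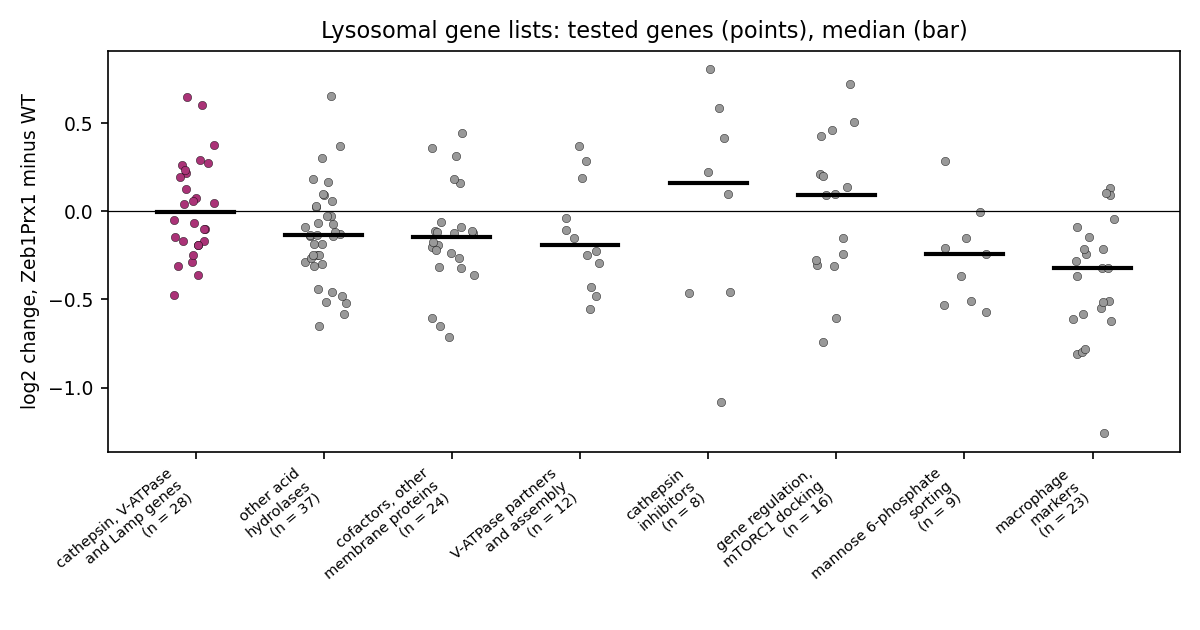
Log2 change (Zeb1Prx1 minus WT, vertical axis) of every tested gene of the cathepsin, V-ATPase and Lamp set and of 7 other lists, 1 point per gene with a bar at the list's median (points are spread sideways for legibility). The medians run from -0.32 for macrophage markers to 0.16 for cathepsin inhibitors, with -0.00 for the 28 genes of the set.

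Macrophage markers lay mostly below 0 as well: 20 of 23 tested markers did (median -0.32) and 6 were lower at an unadjusted p under 0.05 (26.1%, against 6.98% of all tested genes), while 0 passed the adjusted threshold. Their summed log2(FPKM + 1) ranged from 158.6 to 161.8 over the controls and was 150.7, 157.7 and 146.2 in the mutant libraries. Adgre1 had 232 ± 17.8 FPKM in WT libraries and 133 ± 26.4 in Zeb1Prx1 (log2 change -0.81), Cybb -0.80 and Cd68 -0.55, and their part in the cathepsin and V-ATPase values was not tested. In bulk RNA, fewer cells of a type and less RNA per cell cannot be told apart. Stromal markers had a median of 0.40 over 17 genes, of which 5 lay below 0. At an unadjusted limma p under 0.05, 2 stromal markers were higher (11.8%) and 3 lower (17.6%). Osteoblast markers had 0.72 over 11 (4 higher, 36.4%, and 0 lower) and chondrocyte markers 2.14 over 8 (6 higher, 75%, and 0 lower). Osteoclast markers had -0.45 over 6, of which 2 lay above 0, with 1 higher (16.7%) and 3 lower (50%). Of all tested genes, 8.15% were higher and 6.98% lower. Among the chondrocyte markers, Acan and Col11a2 were under 1 FPKM in every WT library and passed the filter through the mutant libraries alone. Every tested chondrocyte marker was highest in Zeb1Prx1 replicate 3. The part of the filter and of that library in the chondrocyte median was not tested.

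Ctsk and Atp6v0d2, the 2 genes left out by name, had log2 changes just outside the range of the tested cathepsins and subunits. The nearest members were Ctsf at 0.65 and Atp6v0a1 at -0.47, and both margins were smaller than the SEs. Ctsk had 27.6, 39.1 and 35.5 FPKM in WT libraries and 49.0, 66.2 and 56.1 in Zeb1Prx1 (log2 change 0.73, SE 0.19, limma adjusted p = 0.273). Atp6v0d2 had 6.38, 5.84 and 5.44 FPKM in WT libraries and 4.33, 3.37 and 3.78 in Zeb1Prx1 (log2 change -0.51, SE 0.14, limma adjusted p = 0.273). For neither gene did the genotypes overlap, and neither passed. The share of Atp6v0d2 in subunit d was 5.33% ± 0.370 in WT and 3.54% ± 1.13 in Zeb1Prx1.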

How the data were processed

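RNA from cultured and sorted bone cells was sequenced as paired reads per the labels' protocols, with 3 libraries per genotype. The deposited table gives FPKM per gene, as the authors computed them; per the submitters' processing notes, the genome was mm10. Aligner, counting tool and strand setting: not given in the sources used here. All 127408 non-zero FPKM values times gene length were whole multiples of 1 step per library (relative tolerance 1e-06), which gave fragment numbers. Groups came from the genotype labels.

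The main test was limma 3.58.1 (R 4.3.3) with an intensity trend on log2(FPKM + 1), for genes with at least 1 FPKM in 3 of 6 libraries, adjusted by Benjamini-Hochberg over all of them. This scale understates changes of low genes. The test was also run on simulated fragments with the same scatter for every gene and no outlying library or length shift. That run therefore does not show how the test performs on these libraries. Alternatives were a pseudocount of 0.1, no filter, a mean of at least 5 FPKM, equal FPKM sums, median-of-ratios scaling, library weights, voom on recovered fragments, the replicate number as a block, leaving out each library and, added later, a length trend removed. Members and lists were chosen with earlier results of these data known.

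Values by library are given for members at an unadjusted p under 0.05, without overlap, among the 5 most abundant cathepsins or V-ATPase genes, and for Lamp genes. Up to 3 genes per pathway list were those with the smallest p; a gene that this rule names is not reported here. Intervals and limits from fragments cover counting error only. Of the 28 tested members, 16 overlap another gene of the table, and 4 of them a gene with a mean of at least 5 FPKM.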

Additional observations from a re-analysis of the deposited data

How the results depend on the processing

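No cathepsin, V-ATPase or Lamp gene passed the adjusted threshold under any of the 15 alternatives run, and the log2 changes of 8 of the 15 genes given by library kept their sign in all of them. Genes at an unadjusted p under 0.05 numbered 5 with no filter (14.3%, against 9.72% of all genes), in place of 3 (10.7%, against 15.1%). They numbered 6 with equal FPKM sums (21.4%, against 15%), 9 with library weights (32.1%, against 30.8%) and 0 to 4 without 1 library (0% to 14.3%, against 9.1% to 23%). Genes without overlap numbered 11 with equal FPKM sums (39.3%, against 24.2% of all genes), in place of 5 (17.9%, against 24.4%), and 5 to 11 without 1 library (17.9% to 39.3%, against 30.3% to 43.2%); this count uses no pseudocount, spread or block and was not recomputed for them, for voom or for the length trend. The median of Lamp genes was -0.32 with equal FPKM sums, and without 1 library those of cathepsins and V-ATPase genes ran from -0.23 to 0.15 and from -0.13 to 0.18. Over all genes, library weights called 447 (268 higher, 179 lower), and leaving out 1 library called 0 to 1. With equal FPKM sums, library weights and the length trend removed, in that order, the signs turned for Atp6v0b (-0.094, -0.22 and -0.14), Atp6v0d1 (-0.12, -0.13 and -0.20), Ctsd (-0.13, -0.11 and -0.13) and Ctss (-0.043, -0.11 and -0.17). With the length trend removed they also turned for Atp6v1g1 (-0.094) and Lamp2 (0.10). Without 1 library, the log2 change ran from -0.27 to 0.27 for Atp6v0b, -0.17 to 0.19 for Atp6v0d1, -0.063 to 0.36 for Atp6v1g1, -0.24 to 0.24 for Ctsd, -0.23 to 0.35 for Ctss and -0.39 to 0.062 for Ctsz. Equal sums scale down Zeb1Prx1 replicate 2, whose FPKM sum was 372566 against 278987 to 312038; the cause of the other turns was not tested. Same-numbered libraries did not deviate together (correlations 0.03, -0.41 and 0.08). Correlations over so few libraries cannot exclude a pairing by number. With the replicate block 0 genes passed, and 2 of the 28, Ctsf and Atp6v0c, had an unadjusted limma p under 0.05 (7.14%, against 10.7% of all genes). With 3 libraries per genotype and SEs of 0.15 to 0.36 on the members, small differences were not detectable. Large differences did not pass the adjusted threshold either. The smallest limma adjusted p over all tested genes was 0.22, and Zeb1, with a log2 change of -1.53, had 0.229. That no member passed therefore does not show that the members were unchanged.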
